A study of Mus musculus with 9 samples.

Results

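Cytosolic ribosomal protein genes were followed through a comparison of Spo11-/- and wild-type mouse testes. The set held every gene whose probes name it alone on the array and whose symbol follows the Rpl and Rps scheme of the cytosolic ribosome, together with Rplp0, Rplp1, Rplp2 and Rpsa. This gave 73 of 7117 genes, 47 of the large and 26 of the small subunit, measured by 167 probes. Spo11 makes the double-strand breaks that start meiotic recombination, and spermatocytes without it stop in meiosis. Each of the 9 arrays set total RNA from whole testis of Spo11-/- mice against that of wild-type mice, in competing dyes. The 15-day group had 4 arrays, all with the Spo11-/- RNA in Cy3 and the wild-type RNA in Cy5. The 12-day group had 5 arrays, with Spo11-/- RNA in Cy5 on replicates 1, 4 and 5 and in Cy3 on replicates 2 and 3. Per the series' design text the mouse pairs came from 1 litter, and the replicate numbers used here only name arrays. The sources used here do not give the strain, the form of the Spo11 allele or whether any arrays shared RNA.

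A ribosome is built from ribosomal RNA and about one protein from each of these genes, in a large subunit that joins amino acids and a small subunit that reads the mRNA. The mRNAs of ribosomal proteins are among the most abundant in a growing cell, and most begin with a run of pyrimidines, the TOP motif, through which their translation is set as a group. Some of the genes have a second copy elsewhere in the genome, and Rpl39l, the autosomal relative of the X-linked Rpl39, is known for its expression in the male germ line. Ribosomal protein genes also have many processed pseudogenes, so a cDNA probe may bind RNA from near-identical copies, and single genes are uncertain to that degree.

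The deposited values are ratios on a log scale, read here as log2, with the median of each array at 0. Their direction is not settled: arrays of the same dye orientation correlated below 0 between the ages (r over all probes from -0.38 to -0.33 for the 15-day arrays against 12-day replicate 3). A 15-day value below 0 stands for a transcript higher in the Spo11-/- testis when Cy5 was divided by Cy3, and for one lower there when the knockout was divided by the wild type. Values at 15 days are therefore given as deposited, and turning their sign turns all of them. A transcript's own dye effect also enters them, since all 4 arrays had 1 orientation. A ratio carries no level, so the tissue could not be checked against its markers, and in whole testis fewer cells of a type and less RNA per cell cannot be told apart. Between 72.1% and 91.3% of the 16128 probes had a value on an array, and the SD of an array's log2 ratios was 0.21 to 0.47.

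The start of the gene is shown first for members on which the results below turn, because the TOP motif lies there. RefSeq promoters of assembly GRCm38.p6 were found for 59 of the 73 members. Each line gives 30 bases, 10 before and 20 after the annotated start, 5′ to 3′ on the gene's strand. Capitals mark a TOP-like run, here at least 6 C or T bases in a row that begin with C and start within 10 bases of the annotated start. Rpl39l and Rpl39, then Rps27 and Rps27l, are pairs of paralogs, Rpl31 and Rpl13 passed the test at 15 days, Rpl35 had the lowest value of any member on an array, and Rplp0 encodes the core protein of the ribosomal stalk.
Rpl39l, chr16:10170218-10170247, plus strand: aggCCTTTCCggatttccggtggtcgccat
Rpl39, chrX:37085203-37085232, minus strand: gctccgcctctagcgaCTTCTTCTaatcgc
Rps27, chr3:90213629-90213658, minus strand: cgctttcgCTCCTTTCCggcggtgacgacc
Rps27l, chr9:66946076-66946105, plus strand: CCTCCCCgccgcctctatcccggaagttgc
Rpl31, chr1:39367841-39367870, plus strand: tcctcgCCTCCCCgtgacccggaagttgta
Rpl13, chr8:123102340-123102369, plus strand: tttcgcctgattttgattggcgtttgagat
Rpl35, chr2:39005112-39005141, minus strand: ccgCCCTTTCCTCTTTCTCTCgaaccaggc
Rplp0, chr5:115559457-115559486, plus strand: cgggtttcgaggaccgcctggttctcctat

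A TOP-like run was found in 30 of the 59 member promoters (50.8%) and in 19.2% of all 27025 promoters in the table. The run of Rpl35 is 18 bases long, and those of both Rpl39 paralogs are 7 and 8 bases. The motif CCGGAAG, searched on both strands of the whole 300-base promoter, was in 25 members (42.4%) against 9.12% of all promoters. The motif AAGATGGC, searched likewise, was in 5 members (8.47%) against 2.88%. The motifs were searched one by one and may overlap, and a match is only a description of the letters. The annotated starts were not checked, so a member without a run here may still have a TOP mRNA. At 15 days the median log2 ratio of the 30 members with a TOP-like run was -0.22, and that of the 29 without one -0.18. On 12-day replicate 1, where members were lowest, these medians were -0.91 and -0.79.

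At 15 days the ribosomal protein genes lay slightly but widely below 0. The median of the 73 fitted means was -0.22 on the log2 scale, against 0.02 for all features tested. On replicates 1 to 4 the median of the members was -0.26, -0.23, -0.32 and -0.06, while the median of all features was from 0 to 0.01. Members below 0 numbered 69, 64, 56 and 48 of 73 on these arrays, so replicate 4 showed the shift least. On all 4 arrays together 42 of 73 members (57.5%) were below 0, as were 19.2% of all features and 23.1% of genes with probes of their own. The 1 member above 0 on all 4 (1.37%) was Rps3, against 18% of all features and 14.4% of such genes. Both subunits took part, with medians from -0.38 to -0.08 for the large and from -0.26 to -0.04 for the small subunit.

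**Figure D1:**
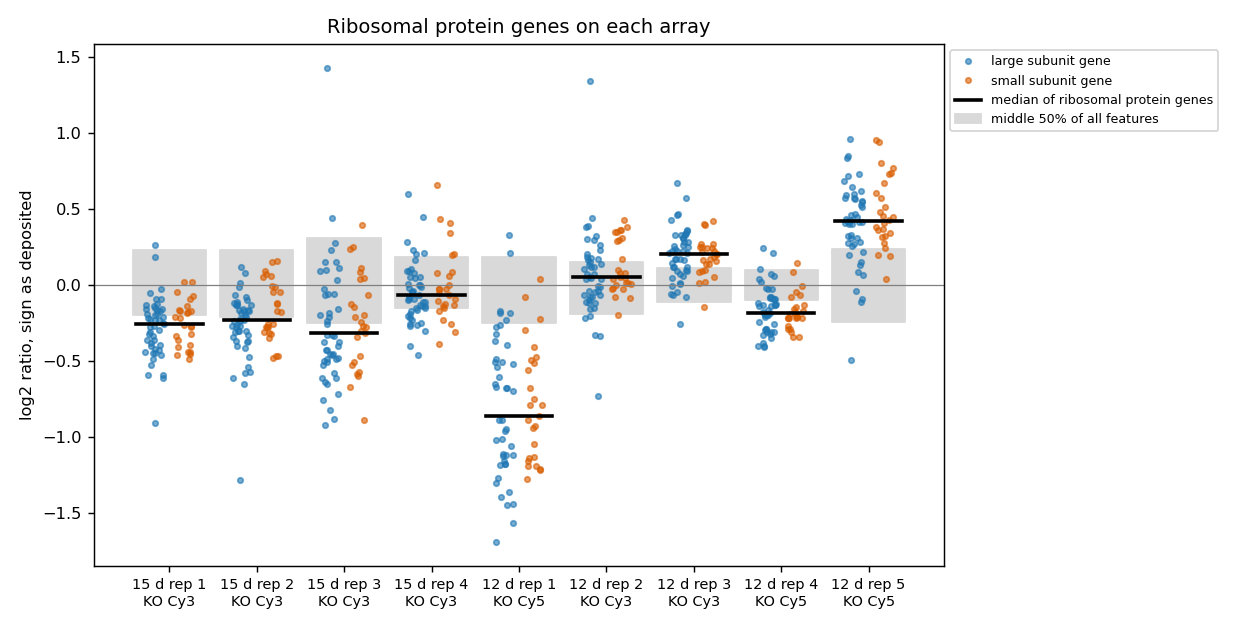
Log2 ratio of each ribosomal protein gene on each of the 9 arrays, with the sign as deposited (y axis, log2), for large (blue) and small (orange) subunit genes; KO gives the dye of the Spo11-/- RNA. Black lines are medians over the members and grey bands the middle of all features from the lower to the upper quartile. The members' median is lowest on 12-day replicate 1, at -0.86, and highest on 12-day replicate 5, at 0.42.

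Gene by gene, 9 of 73 members were below 0 and 0 above 0 at a limma adjusted p under 0.05. Among all 12198 features 5.37% were called below 0 and 7.05% above, and among the genes with probes of their own 7.2% and 4.04%. In either direction 12.3% of the members were called, against 12.4% of all features and 11.2% of such genes, so the share of members called was at the background. At an unadjusted p under 0.05 there were 31 members (42.5%) and 31.1% of all features. Of the 9 called members 7 belong to the large subunit (14.9% of its members) and 2 to the small (7.69%). Calls were made for 7 of 24 members with 1 probe (29.2%) and for 2 of 49 with more than 1 probe (4.08%), while for other genes these shares were 11.9% and 9.37%.

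Rpl39l had the lowest mean of all members. Its values were -0.91, -1.28, -0.92 and -0.40 on replicates 1 to 4, with a mean of -0.88 (SE 0.14, limma adjusted p = 0.0075, a 1.84-fold difference). All 4 arrays were below 0, and it was the 1 member called at the stricter threshold of an adjusted p under 0.01 and 1.5-fold, which 1.98% of all features passed. The next lowest was Rpl13, a large subunit protein, at -0.59, -0.58, -0.88 and -0.02 (mean -0.52, SE 0.14, limma adjusted p = 0.041). Replicate 4 of Rpl13 was thus close to 0. Rpl36, also of the large subunit, had -0.61, -0.17, -0.82 and -0.46 (mean -0.52, SE 0.12, limma adjusted p = 0.029).

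Rpl24 had -0.42, -0.65, -0.50 and -0.26 (mean -0.46, limma adjusted p = 0.027). It encodes a large subunit protein, and the SD of its 4 arrays was 0.16. Rpl9 had -0.43, -0.57, -0.49 and -0.25 (mean -0.44, limma adjusted p = 0.029). The small subunit gene Rps7 had -0.46, -0.35, -0.67 and -0.26 (mean -0.44, limma adjusted p = 0.033). Rpl30 had -0.40, -0.21, -0.76 and -0.31 (mean -0.42, limma adjusted p = 0.047). Replicate 3 was the lowest array for Rpl36, Rps7, Rpl30 and Rpl13 alike. Rpl31 had -0.32, -0.47, -0.48 and -0.21 (mean -0.37, limma adjusted p = 0.045). Rps13, a small subunit protein, had -0.41, -0.48, -0.28 and -0.31 (mean -0.37, limma adjusted p = 0.041). Just outside the threshold were Rpl41, which encodes the shortest ribosomal protein (mean -0.35, limma adjusted p = 0.051), and Rps29 (mean -0.44, limma adjusted p = 0.052).

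These calls rested on having all 4 arrays. Without replicate 1 or without replicate 3 the 1 member called was Rpl39l, without replicate 2 there were Rpl39l and Rpl36, and without replicate 4 there were 6. The share of all features called fell too, to 5.37%, 5.19%, 3.24% and 10.3% without replicates 1 to 4. In a joint fit of all 9 arrays with a dye term, the members called were Rpl39l and Rplp0 under the Cy5 over Cy3 reading (7.75% of all features), and 0 with the 15-day sign turned (0.173%), where Rpl39l was at -0.76 (limma adjusted p = 0.20).

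**Figure D2:**
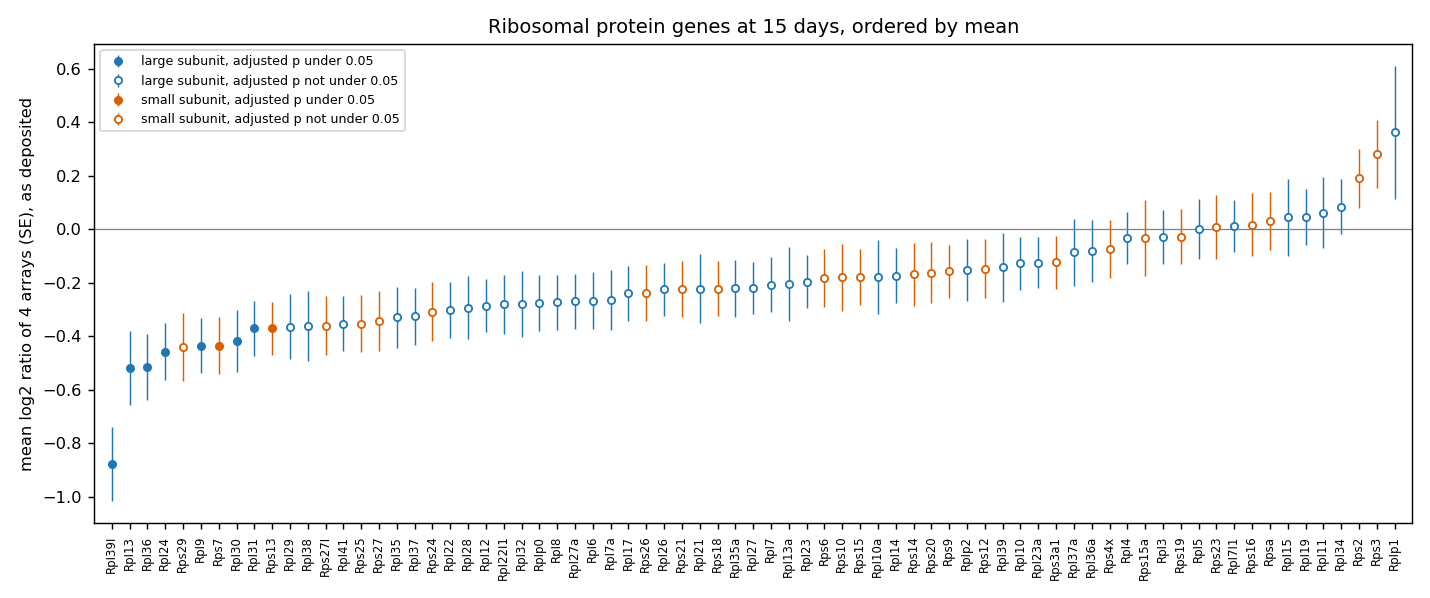
Mean log2 ratio at 15 days of the 73 ribosomal protein genes in order (y axis, log2, as deposited), with the SE of the limma fit over 4 arrays. Filled points have a limma adjusted p under 0.05; these 9 genes all lie below 0, and Rpl39l stands lowest at -0.88.

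The 5 highest members were Rplp1, Rps3, Rps2, Rpl34 and Rpl11, none of which passed the limma test. Rplp1, an acidic protein of the stalk that calls elongation factors to the ribosome, had -0.33, -0.24, 1.43 and 0.60 (mean 0.36, SE 0.25, limma adjusted p = 0.35). Its arrays thus split, with replicates 1 and 2 below 0 and 3 and 4 above. Its 3 probes had 1.72, 1.84 and 0.72 on replicate 3, and after the median of the nearest spots in probe order was subtracted the gene's value there was 0.93. Rps3, a small subunit protein at the mRNA entry site, had 0.02, 0.06, 0.39 and 0.66 (mean 0.28, limma adjusted p = 0.17). Rps2, from the same region of the small subunit, had -0.05, 0.15, 0.24 and 0.43 (mean 0.19). Rpl34 (0.09) and Rpl11 (0.06), the latter known to bind the p53 regulator Mdm2, came next.

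The other stalk proteins differed from Rplp1. Rplp0 was below 0 on all 4 arrays at 15 days (-0.38, -0.42, -0.21 and -0.10, mean -0.28, limma adjusted p = 0.11). Rplp2 had -0.14, -0.12, -0.46 and 0.11 (mean -0.15). Rpsa, which also serves as a laminin receptor, stayed near 0 with a mean of 0.03 (limma adjusted p = 0.88) from 6 probes. Fau, whose product is cleaved to release the small subunit protein Rps30 and which falls outside the symbol rule, had -0.22, -0.02, -0.31 and 0.02 (mean -0.13, limma adjusted p = 0.43). Rack1, which also encodes a part of the ribosome, was not matched to a probe of their own. The 4 X-linked members were Rpl39 (-0.14), Rpl10 (-0.13), Rpl36a (-0.08) and Rps4x (-0.07), and 0 of them passed the limma test at 15 days, nor did any at an unadjusted p under 0.05.

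The paralog pairs behaved differently from one another. Rpl39l lay below Rpl39 on each array at 15 days, where Rpl39 had -0.16, 0.12, -0.58 and 0.05 (mean -0.14, limma adjusted p = 0.49). On each of the 5 arrays at 12 days, as deposited, Rpl39l lay above Rpl39. Rpl39l had -0.52, -0.04, 0.67, -0.12 and 0.41, and Rpl39 had -0.89, -0.10, 0.06, -0.26 and 0.31. The 12-day arrays hold both dye orientations, so this order as deposited is not an order of the knockout difference. The 12-day knockout coefficients were -0.20 for Rpl39l and -0.13 for Rpl39 (limma adjusted p = 0.9999 for each). The difference between the genes was not tested, and each has 1 probe. Rps27 (-0.49, -0.26, -0.53 and -0.09 at 15 days) and Rps27l (-0.44, -0.26, -0.60 and -0.14) had nearly the same values, with means of -0.34 and -0.36. Rpl22 and Rpl22l1 had means of -0.30 and -0.28. Rpl7 was below 0 on all 4 arrays (mean -0.21), whereas Rpl7l1 was from -0.03 to 0.09 (mean 0.01). How far the probe of a gene binds the transcript of its paralog was not tested.

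**Figure D3:**
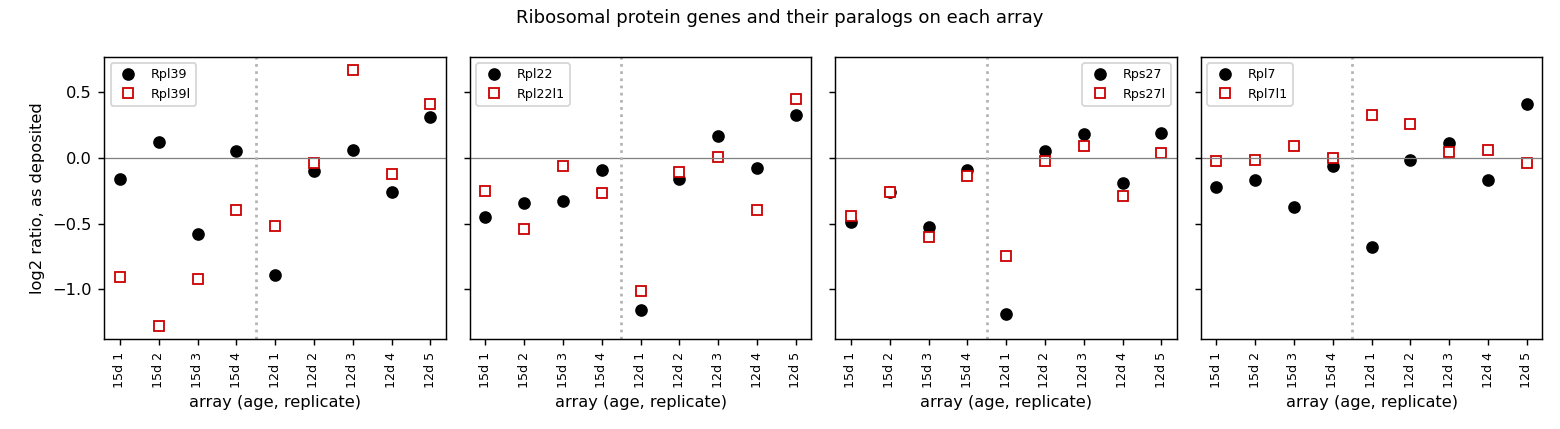
Log2 ratio as deposited (y axis) of 4 ribosomal protein genes (black circles) and their paralogs (open red squares) on the 9 arrays, 15-day arrays left and 12-day arrays right of the dotted line. Rpl39l is below Rpl39 on the 4 arrays at 15 days and above it, as deposited, on the 5 arrays at 12 days, which hold both dye orientations. Rps27 and Rps27l lie close together at 15 days, at means of -0.34 and -0.36.

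Probes of a gene often disagreed. In 14 of the 49 members that several probes measured, the means of those probes at 15 days lay on either side of 0. The widest spread was that of Rpl37a, whose 3 probes ran from -0.39 to 0.34. One of them had 1.62 on replicate 3 where the others had -0.55 and -0.38. Rps15 followed, with 4 probes from -0.48 to 0.19, and Rpl3, which helps form the peptidyl transferase centre, with 7 probes from -0.26 to 0.34. In Rps15 one probe (0.17, 0.22, 0.23 and 0.13) was above 0 on every array and the others had means below 0. Tested one by one, 18 of 166 member probes, from 17 genes, were called below 0 and 0 above. In either direction 13% of all probes tested were called.

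Related gene lists had medians nearer 0 than the ribosomal proteins in the 15-day means and on replicates 1 to 3. On replicate 4 translation factors (-0.0675) and mitochondrial ribosomal proteins (-0.12) lay farther from 0 than the members (-0.064). Other TOP genes (-0.02) and ribosome biogenesis genes (-0.055) lay nearer 0 there. The median at 15 days was -0.09 over 40 translation factors, -0.13 over 17 other genes with TOP mRNAs, -0.06 over 54 ribosome biogenesis genes and -0.19 over 45 mitochondrial ribosomal protein genes. Of the translation factors 2 were called below 0 and 1 above: Pabpc1, the poly(A)-binding protein (-0.88, limma adjusted p = 0.012), Eif3e (-0.48, limma adjusted p = 0.028) and the helicase gene Eif4a1 (0.39, limma adjusted p = 0.047). Of the other TOP genes 2 were called, which were again Pabpc1 and Eif3e. Of the biogenesis genes 3 were called below 0 and 1 above, with the smallest p for Rrp1 (-0.59) and the RNA polymerase I and III subunit gene Polr1c (-0.52). Of the mitochondrial ribosomal proteins 4 were called below 0 and 1 above, with the smallest p for Mrpl24 (-0.67) and Mrps25 (1.08). For comparison, 5.37% of all features were called below 0 and 7.05% above. The difference between these gene lists was not tested.

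Germ cell markers moved at 15 days as well. Among all features 5.37% were called below 0 and 7.05% above, against which the small counts here are to be read. The marker lists were chosen with earlier results of these data known, so their counts are descriptions and no independent test. Of 13 spermatocyte markers 7 were called below 0, with the smallest p for Rsph1 (-1.73) and Lyar (-1.56). Slc2a3 was lower, at -2.16, while Sycp3 was at 0.23 and not called (limma adjusted p = 0.39). The median of the spermatocyte list on the arrays was -0.40, -0.69, -0.62 and -0.29. Of 8 spermatogonial markers 3 were called above 0, with the smallest p for Etv5 (1.20) and Ccnd1 (0.42), and the list's median of fitted means was 0.35. The 1 spermatid marker measured, Txndc2, was called above 0 (0.81). Of 11 Sertoli cell markers 0 were called by limma, the smallest p being that of Tjp1 (-0.25, limma adjusted p = 0.13). Among Leydig cell markers 1 of 6 was called above 0 (Nr5a1, 0.43). Among peritubular markers 1 of 9 was called above (Col1a1, 0.41) and 1 below (Lum, -0.57). Among macrophage markers 1 of 3 was called below 0 (Lyz2, -0.61), and among endothelial and blood markers 1 of 5 was called above (Cdh5, 0.78). Called or not, the median of the fitted means was 0.11 for Sertoli, 0.115 for Leydig and 0.06 for peritubular markers. For macrophage markers it was -0.09, and for endothelial and blood markers 0.14. The part of cell composition in the ribosomal protein values was not tested.

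At 12 days the comparison asks whether these transcripts differ at a younger age. No ribosomal protein gene passed: limma called 0 of 72 members, and 0 of 10075 features (0%). At an unadjusted p under 0.05 there were 0 members and 2.67% of all features. The median knockout over wild-type log2 ratio, under the Cy5 over Cy3 reading, was -0.16 for the members and -0.01 for all features. It was -0.01 without replicate 1 and -0.32 without replicate 5. The members of smallest p were Rplp1 (-0.21), Rpl12 (-0.40), Rpl24 (-0.38), Rps10 (-0.22) and Rpl19 (0.24), each with a limma adjusted p = 0.9999. Rpl12, a protein at the base of the stalk, had -0.18, 1.34, 0.14, -0.09 and 0.06 as deposited. Its value on replicate 2 came from 1 probe at 2.56 beside another at 0.12.

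Single 12-day arrays nonetheless shifted the members together, and arrays with the knockout in Cy5 differed in sign among themselves. With Spo11-/- RNA in Cy5, the members' median was -0.86 on replicate 1, -0.19 on replicate 4 and 0.42 on replicate 5. With it in Cy3 the median was 0.05 on replicate 2 and 0.20 on replicate 3. On replicate 1 members below 0 were 68 of 71, on replicate 4 they were 64 of 73, and on replicate 5 members above 0 were 69 of 73. The shift of replicate 1 ran from -1.69 (Rpl35) to 0.33 (Rpl7l1), and 4.78% of all features were lower than the members' median there. After the nearest spots in probe order were subtracted these medians were -0.85, 0.05, 0.18, -0.16 and 0.47 on replicates 1 to 5. The related gene lists did not share the shift of replicate 1 to the same size. Their medians were -0.03 for translation factors, -0.21 for other TOP genes, -0.06 for biogenesis genes and -0.25 for mitochondrial ribosomal proteins. Medians of the cell type marker lists on replicate 1 ran from -1.02 (spermatid, 1 gene) and -0.53 (Leydig) to 0.18 (spermatogonia). No member had the same knockout over wild-type sign on all 5 arrays, whereas 2.71% of all features were below and 2.09% above 0 on all.

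Within the set, the 12-day values were ordered by the number in the gene symbol, a pattern noticed after the values were seen. Ribosomal proteins were numbered by how far they run on gels, so higher numbers tend to be smaller proteins. On replicate 1 the median was -0.44 for numbers 1 to 10, -0.87 for 11 to 20, -1.17 for 21 to 30 and -1.18 for 31 to 41. On replicate 4 these medians were -0.08, -0.14, -0.21 and -0.30. On replicate 2 they were 0.26, 0.04, 0.01 and -0.05. Spearman's rho of value and number was -0.72 on replicate 1 (n = 63 genes), -0.59 on replicate 4 (n = 65) and -0.51 on replicate 2 (n = 64), but 0.23 on replicate 3 and -0.07 on replicate 5.

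Large and small subunit genes showed the order separately on replicate 1, with rho of -0.69 over 39 and -0.81 over 24 genes. With members of 1 probe alone rho was -0.65, -0.43 and -0.53 on replicates 1, 2 and 4, and with nearest spots subtracted it was -0.73, -0.53 and -0.56. The Spo11-/- RNA was in Cy5 on replicates 1, 4 and 5 and in Cy3 on replicates 2 and 3, so each orientation held arrays with and without the falling order. At 15 days rho was from -0.35 to -0.20 over all numbered members, and from -0.08 to 0.35 over those with 1 probe. These are descriptions over genes that share an array, and genes are not independent replicates. For the 12-day knockout coefficient rho was -0.57. It was -0.14 without replicate 1 and -0.24 without replicate 3, and -0.71, -0.60 and -0.68 without replicates 2, 4 and 5.

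**Figure D4:**
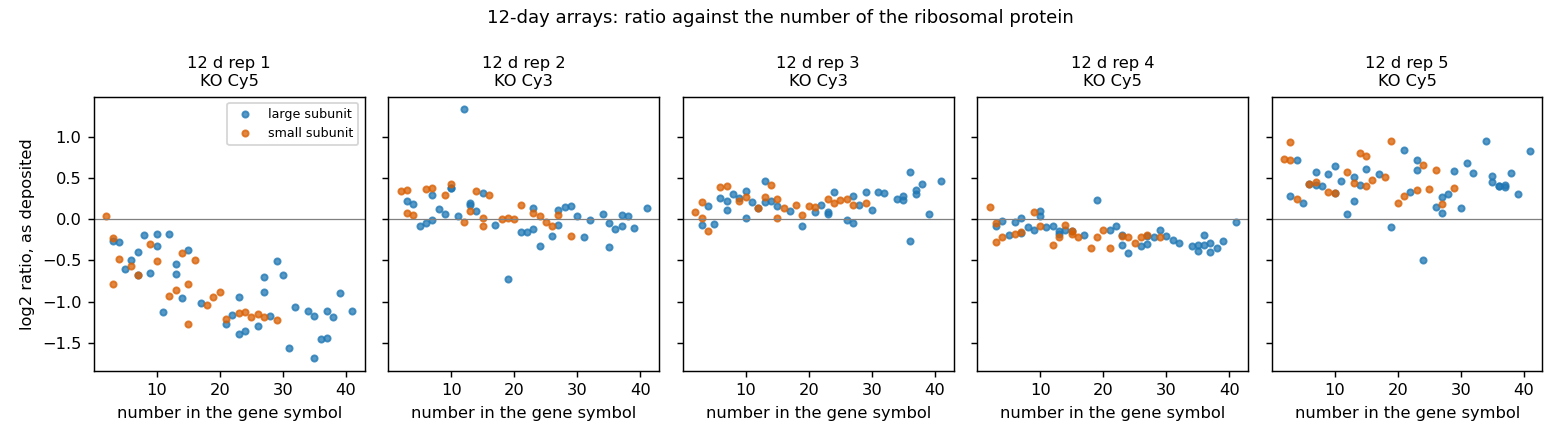
Log2 ratio as deposited (y axis) of the 65 numbered ribosomal protein genes, paralogs left out, against the number in the gene symbol (x axis) on the 5 arrays at 12 days. Values fall with the number on replicates 1, 2 and 4 (rho -0.72, -0.51 and -0.59) and show little order on replicates 3 and 5.

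The same genes were also high or low together on certain pairs of arrays. Over the members r was 0.68 between 12-day replicates 1 and 2, which have opposite dye orientation, against 0.29 over all features. These 2 arrays share a range of array title numbers and had the fewest probes with a value (72.1% and 72.9%). Between replicates 1 and 4, of the same orientation, r was 0.77 against 0.45 over all features. Between replicates 1 and 5, again of the same orientation, it was -0.13. Among the 15-day arrays r was from 0.16 to 0.70 over the members and from 0.38 to 0.60 over all features. Each r is a description over genes that share spots, dyes and array.

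**Figure D5:**
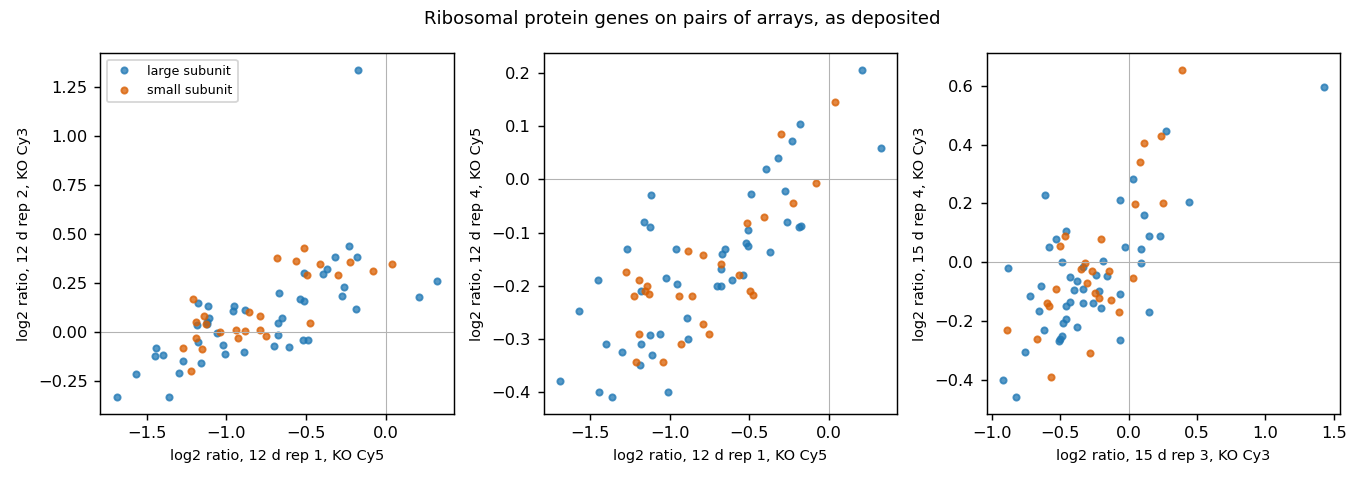
Log2 ratios as deposited of the ribosomal protein genes on 3 pairs of arrays (x and y axes, log2), blue for large and orange for small subunit genes. Members line up between 12-day replicates 1 and 2 (r = 0.68), between 12-day replicates 1 and 4 (r = 0.77) and between 15-day replicates 3 and 4 (r = 0.70).

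The age comparison asks whether the knockout difference at 15 days is that at 12 days. Because of the dyes its estimate compares all 15-day arrays with 12-day replicates 2 and 3, so 4 arrays with 2. No 15-day array shares a range of array title numbers with a 12-day array, so age and title range cannot be told apart. Under the Cy5 over Cy3 reading limma called 0 of 72 members and 2.34% of 9851 features, and at an unadjusted p under 0.05 there were 10 members (13.9%) and 20.3% of all features. The median difference, 15 minus 12 days, was 0.32 for the members and -0.01 for all features. With the 15-day sign turned 0 members and 0% of features were called, 0 members and 6.6% of features had an unadjusted p under 0.05, and the median was -0.09. The direction of the members' median thus depends on which reading is taken.

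The members of smallest p for the age difference were Rpl39l (1.19, limma adjusted p = 0.067), Rpl12 (1.03, limma adjusted p = 0.067), Rplp0 (0.55, limma adjusted p = 0.091), Rps7 (0.83, limma adjusted p = 0.12) and Rpl13 (0.85, limma adjusted p = 0.16). With the sign turned Rpl39l was at -0.56 and Rplp0 at -0.01. Without 12-day replicate 1 the calls were Rpl39l and Rps7 (4.13% of all features), and without replicate 5 they were Rpl39l, Rpl12 and Rps7 (6.66%). Without 15-day replicate 4 the call was Rpl39l (3.43%). Leaving out 12-day replicate 3 leaves replicate 2 as the only 12-day array in the estimate, so its calls are not given. The Rpl12 value on 12-day replicate 2, 1.34, averages 1 probe at 2.56 and another at 0.12, which limits its estimate for the age difference. As deposited, 15-day and 12-day values did not overlap for 2 of 71 members (2.82%), Rplp0 and Rpl12, which were higher at 12 days, against 8.62% of all features. Another 5.83% of features, and 0 members, were lower at 12 days without overlap. Rplp0 was above 0 on all 5 arrays at 12 days, at 0.21, 0.18, 0.36, 0.21 and 0.25, and below 0 on all 4 at 15 days. The 12-day arrays hold both dye orientations, and the 12-day knockout coefficient of Rplp0 was -0.02 (limma adjusted p = 0.9999). Rps2 was the other member above 0 on all 5 arrays at 12 days (2 of 71, against 6.38% of all features).

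Over the 9 arrays most members followed one course. The correlation of a member with the median of the others had a median r of 0.89 over 71 members, and 33 had an r over 0.9. How many of the other genes reached such an r was not counted, so the 33 have no background to be read against. The members least like the rest were Rpl7l1 (r = -0.55), Rplp1 (0.06), Rplp0 (0.29), Rpl12 (0.37) and Rpl39l (0.63). Among 5310 other genes with a value on all 9 arrays, those most like the members' median were AI987944 (r = 0.99), Atp5mpl (0.98), Gap43 (0.98), Fau (0.98) and Tnfsf8 (0.97). Fau had -0.88, 0.28, 0.22, -0.01 and 0.60 on the 12-day arrays, low on replicate 1 and high on replicate 5 as the members were. Over the 7 arrays without 12-day replicates 1 and 5, where the members lay farthest from 0, the members' median r was 0.83 and the r of these 5 genes was from 0.89 to 0.96.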

How the data were processed

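Per the series' design text, the authors scanned 2-colour spotted cDNA arrays, flagged spots in GenePix and centred each array on its median. The deposited log ratios are read here as log2 ratios. The sources used here do not give their log base, background correction or direction. No scanner intensities were used, so the number of arrays limits the precision. Probes were named through a platform annotation, which is old (9604 of 16128 with exactly 1 gene, 213 with several, 6311 with none), and updated by Entrez ID to RefSeq (GRCm38.p6, 98.9% matched). Probes of a gene were averaged, and 9 probes naming a member beside another gene were left out. Columns of other samples not used numbered 0.

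Tests used limma 3.58.1 under R 4.3.3 (moderated statistics from lmFit and eBayes, two-sided, Benjamini-Hochberg adjustment over all features, called under 0.05), in place of the SAM statistic of the design text, which was not run. The 15-day mean was tested against 0 with at least 3 values; the 12-day model had a dye intercept and needed 4 values; the age difference came from a joint model with a shared dye term. Arrays count as replicates, and p-values measure the spread between arrays, which may share RNA. The scripts were tested on simulated data.

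The members and lists were chosen with earlier results of these data known. The named genes were members past a threshold, the 5 highest and 5 lowest at 15 days, the 5 of smallest p at 12 days and for the age difference, paralogs, stalk and X-linked members, Rpsa, Fau and Rack1, the 3 of widest probe spread, up to 2 genes of each other list, and the 5 genes most like the members' median. Genes of a high or low value on 1 array, probes and number classes were named after their values were seen. Alternatives covered centring, scaling, quantile normalization, subtraction of the 100 nearest spots on each side, single probes, missing values, robust empirical Bayes, a stricter threshold, dye terms, the range of array titles as a block, the sign of the 15-day ratios and each array left out.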

Additional observations from a re-analysis of the deposited data

Results flagged for a closer look

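In 147 groups of values, 1 per member and age and 1 per age for the members' median, 4 held an array far from the others, while chance gives about 1 in 20. At 15 days these were Rpl23 on replicate 4, at -0.043 beside a next value of -0.23, and Rps29 on replicate 3, at -0.89 beside -0.32. At 12 days these were Rpl12 on replicate 2, at 1.34 beside 0.14, and Rps27 on replicate 1, at -1.19 beside -0.19. The members' median itself was not among them at either age.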

How the results depend on the processing

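At 15 days 9 members were called. Tested as single probes, 18 of 166 member probes, from 17 genes, were called, against 13% of all probes tested. For the other alternatives the share of all features called is in parentheses (12.4% as reported). The count of members was 14 with nearest spots subtracted (15.4%) and 1 at an adjusted p under 0.01 and 1.5-fold (1.98%). In the joint dye fit of both ages it was 2 (7.75%), and 0 in that fit with the sign turned (0.173%). It ranged from 1 to 6 with 1 array left out (3.24% to 10.3%). Mean centring gave 12 (12.8%), scaling 11 (12.8%), quantile normalization 13 (13.1%), complete values 11 (13%) and robust empirical Bayes 11 (12.8%), all below 0. The median became 0.22 with the sign turned and was -0.25 to -0.19 with 1 array left out. Rpl39l lay below 0, in the sign as deposited, under the 14 alternatives fitted for it, which do not include the turned sign by itself (-1.04 to -0.71, limma adjusted p from 0.0016 to 0.20) and missed the threshold under 1, the joint fit with the sign turned. At 12 days the count was 0 under all 17 alternatives, and the median -0.32 to -0.01 with 1 array left out. For the age difference 0 members were called, with 2.34% of all features. The count was 1 with mean centring (3.08%), 3 with scaling (5.43%), 5 with quantile normalization (8.08%) and 1 with nearest spots subtracted (5.02%). It was 1 without a dye term (2.51%) and 0 to 3 with 1 array left out. Tested as single probes, 1 of 159 member probes was called, against 2.74% of all probes tested. The median age difference was 0.26 to 0.42 with 1 array left out. It was -0.16 to -0.03 when the sign was turned as well, an alternative chosen after seeing the data. The cause of these changes was not tested, beyond the smaller number of arrays or features tested. Each ratio already sets 1 knockout against 1 wild-type sample. No paired analysis was possible between the ages because the labels give no replicate numbers.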
